A study of Mus musculus with 6 samples.

Results

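Classical monocytes of mouse colon tumours were examined in single-cell RNA data as the cells that met a fixed transcript rule. The members were chosen by measured UMIs (unique molecular identifiers, 1 per captured RNA molecule) of marker genes. A barcode with 200 genes or more, of whose UMIs no more than 20% were mitochondrial, was kept, and a kept barcode was a member when it had at least 3 UMIs of Lyz2, 3 or more summed over Ly6c2, Plac8 and Chil3, and at least 1 of Csf1r or Ccr2. It had to hold fewer than 3 UMIs of the C1q genes together, fewer than 3 of Arg1, at most 1 of Csf3r, and 0 of Cd3e, Cd79a, Epcam and Flt3. By this rule 2582 of 50875 kept barcodes were members. Apc ICI tumours 1, 2 and 3 gave 144, 93 and 77 members, and AOM PN tumours 1, 2 and 3 gave 819, 805 and 644.

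Each of the 6 libraries came from 1 whole colon tumour of a male mouse, dissociated, sorted with DAPI against dead cells and run on 10x 3′ v3 chemistry. Apc ICI tumours were from VilCreER Apcfl/fl mice given 70 µl of 100 µM 4-OH tamoxifen into the colonic submucosa. AOM PN tumours were from VilcreER P53fl/fl Notch1Tg mice given 2 mg tamoxifen into the peritoneum and, from day 4, the carcinogen azoxymethane (AOM) at 10 mg/kg a week for 6 weeks. In both groups the villin promoter directs the Cre recombinase to the epithelium, so the engineered alleles are not aimed at monocytes. Mice were culled at clinical endpoint. Genotype, carcinogen and route of induction changed together between the groups and cannot be told apart here, and the labels do not say whether tumours came from separate animals, so each p-value measures the spread between these tumours.

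Classical monocytes leave the bone marrow through the chemokine receptor Ccr2, circulate, and enter inflamed tissue and tumours. In mice they carry high Ly6C on their surface, and in tissue they lose it while they gain MHC class II and macrophage genes. In the gut they replenish much of the macrophage pool, and in tumours they are a main source of macrophages.

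All 4 markers of the label, Ly6c2, Plac8, Chil3 and Ccr2, are genes of the rule, so their values are a description and no independent check of the label. Plac8 was detected in 96.1% to 99.6% of members of each tumour. Ly6c2, the Ly6C surface antigen gene, was detected in 84.0%, 75.3% and 87.0% of Apc ICI members and in 69.7%, 68.8% and 57.3% of AOM PN members. Chil3 was found in 31.2% to 69.8% of members, and Ccr2 in 57.0% of Apc ICI 2 members and in 76.8% to 87.5% of those of the other 5 tumours. Members with Plac8 as the only one of Ly6c2, Plac8 and Chil3 made up 10.4% to 24.5%, so the rule also took in cells with no Ly6c2 transcript.

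Median depth was 12240, 8418 and 9524 UMIs per member in Apc ICI and 7573, 9687 and 8491 in AOM PN. Haemoglobin transcripts took 1.87% to 61.4% of all UMIs of a library, and 25 genes passed the test between tumour groups without haemoglobin genes, against 24 with them. No barcode sequence was a monocyte in more than 1 library, and 4 to 34 kept barcodes were shared by a pair of libraries. Members scored as doublets made up 2.24% to 7.94% of each tumour's members. Neutrophil transcripts differed more between libraries: members with 10 or more S100a8 and S100a9 UMIs made up 26.9% in Apc ICI 2 and 2.86% to 6.94% in the others, and the 15 neutrophil marker genes had summed levels of 2356, 12328 and 7440 CPM in members of Apc ICI tumours, against 4550, 1604 and 2038 CPM for AOM PN. CPM scales a gene's UMIs to a common total, here without haemoglobin, and in the tests below with it. Mast cell and basophil transcripts ran the other way, with summed levels of 9 marker genes between 17.8 and 35.3 CPM for Apc ICI and between 872 and 16442 CPM for AOM PN, while barcodes with at least 3 Cpa3 UMIs numbered 9 to 18 and 262 to 2962 per tumour. Results were computed with these transcripts present, and their part in the results below was not tested except where a value without them is given.

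At the edge of the rule, 59 members with exactly 3 UMIs of Ly6c2, Plac8 and Chil3 carried 7208 CPM of S100a8 and 63.6 CPM of F13a1. The 74 barcodes that missed it with 2 UMIs carried 12769 CPM of S100a8 and 74.0 CPM of F13a1. The 672 members with 1 Csf3r UMI held 2245 CPM of S100a8, against 6718 CPM in 252 barcodes excluded with 2. At the C1q limit the 39 members with 2 UMIs and the 41 barcodes outside with 3 held 161 and 166 CPM of F13a1. At the Arg1 limit the 114 members with 2 UMIs and the 55 barcodes outside with 3 held 163 and 162 CPM.

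The first question was how much of each tumour the monocytes made up. They were 2.88%, 1.27% and 1.47% of kept barcodes in the Apc ICI tumours and 7.01%, 9.09% and 5.04% in the AOM PN tumours. Every AOM PN tumour lay above every Apc ICI tumour. The means were 1.87% ± 0.88 (SD, n = 3) and 7.05% ± 2.03 (SD, n = 3), a ratio of 3.76, with a two-sided exact permutation p of 0.1, the smallest that 3 against 3 tumours allow. When each barcode was first thinned to 1500 UMIs the ratio was 3.04, and without barcodes rich in haemoglobin it was 2.72. A stricter rule also asked for at least 1 UMI each of Ly6c2 and Ccr2. Under it the means were 1.30% and 4.06%, a ratio of 3.12, and the difference of 5.18 points was 2.76 points. The shares are of sorted, droplet-captured barcodes, so fewer monocytes and more of the other cells cannot be told apart.

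Among mononuclear phagocytes, taken as barcodes that passed the Lyz2, Csf1r or Ccr2, Csf3r and negative-gene limits, monocytes made up 30.9%, 20.3% and 29.2% in Apc ICI and 46.4%, 45.3% and 28.3% in AOM PN. AOM PN 3 fell within the Apc ICI range, and the exact permutation p was 0.3. The difference of 13.2 points was 4.62 points under the stricter rule. C1q macrophages had at least 3 C1q UMIs and lay under the monocyte and Arg1 limits. They made up 30.9% to 35.6% of Apc ICI phagocytes but 9.12% to 14.4% of those from AOM PN. These ranges did not overlap, with an exact permutation p of 0.1, but leave out C1q barcodes that also reached another limit. Barcodes at both the C1q and Arg1 limits were 5.58% to 11.8% of Apc ICI phagocytes and 5.12% to 13.9% of AOM PN phagocytes. Those at all 3 limits were 1.89% to 3.49% and 3.29% to 9.22%. With every barcode at the C1q limit counted, AOM PN 3 no longer lay below the Apc ICI tumours. The C1q macrophage class was shallower in Apc ICI tumours, with medians of 3138.5, 2766.5 and 2158.5 UMIs, against 3810, 4617 and 7689 for AOM PN. The part of depth in the gap of this class was not tested. As a share of all kept barcodes the same C1q class was 2.27% ± 0.55 (SD, n = 3) in Apc ICI and 2.17% ± 0.33 (SD, n = 3) in AOM PN. Arg1 macrophages, with at least 3 Arg1 UMIs and under the other limits, were few: 19, 14 and 14 barcodes in Apc ICI and 82, 84 and 124 in AOM PN. Barcodes that held both monocyte and C1q or both monocyte and Arg1 transcripts at 3 UMIs or more stayed out of all 3 classes, and the first kind, 585 barcodes, was 3.03% to 7.08% of Apc ICI phagocytes and 6.01% to 12.1% of those from AOM PN. The second kind, 900 barcodes, was 9.47% to 11.6% and 10.3% to 18.9%, and outnumbered the 337 barcodes of the Arg1 class. A further 613 barcodes reached the C1q and Arg1 limits, and 386 reached all 3. The Arg1 class thus left out most barcodes with at least 3 Arg1 UMIs.

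**Figure D1:**
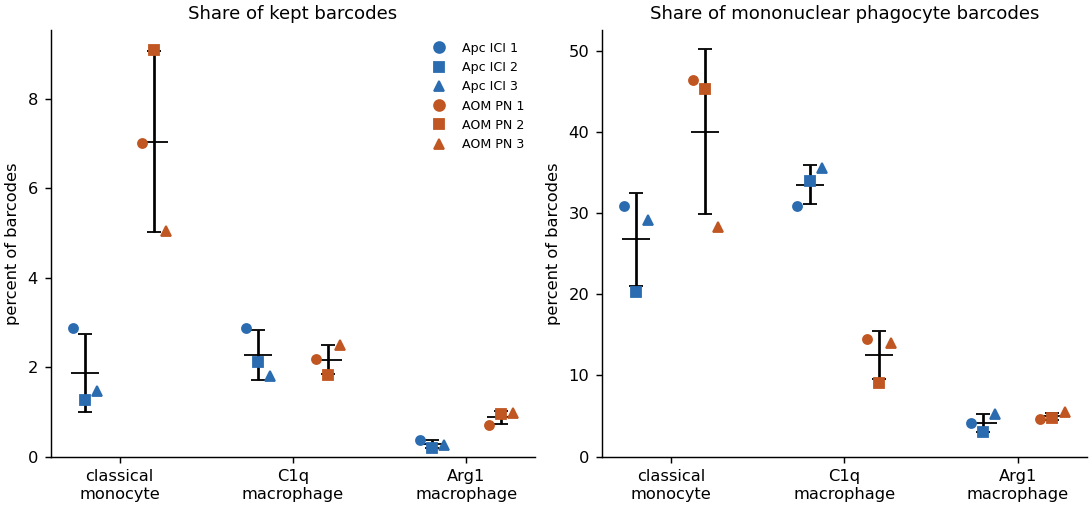
Monocytes, C1q macrophages and Arg1 macrophages as percent of all kept barcodes (left) and of mononuclear phagocyte barcodes (right); points are tumours, bars the mean and SD of 3. On the left Apc ICI monocytes lie at 1.27% to 2.88% and AOM PN monocytes at 5.04% to 9.09%, while on the right AOM PN 3 at 28.3% lies within the Apc ICI points.

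Members were split by their raw Ly6c2 UMIs, as a description with no test. In all 6 tumours, members with 3 or more Ly6c2 UMIs held more F13a1 (coagulation factor XIII A), Vcan, Fn1 and Ms4a4c than members with none. In the same 6 tumours they held less H2-Ab1 and Cd74, the MHC class II chain and its invariant chain, and less Il1b and Apoe. F13a1 was 5.77 to 35.05 CPM at 0 Ly6c2 UMIs and 130 to 368 CPM at 3 or more in the Apc ICI tumours. In the AOM PN tumours it was 108, 95.7 and 33.2 CPM at 0 and 640, 398 and 281 CPM at 3 or more.

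H2-Ab1 ran the opposite way, at 4221, 4722 and 5549 CPM in Apc ICI members with no Ly6c2 UMI and 1935, 878 and 541 CPM in those with 3 or more. In AOM PN it was 2043, 2721 and 4117 CPM against 239, 573 and 882 CPM. The ranges of all 6 tumours at 0 and at 3 or more did not overlap for either gene. Transcripts of other cells differed too: 11 dendritic cell genes together were higher at 0 Ly6c2 UMIs in 5 of 6 tumours, at 48.3 to 349 CPM against 49.3 to 125 CPM at 3 or more. The neutrophil genes reached 12751, 28373 and 35749 CPM in Apc ICI members with no Ly6c2 UMI, against 571, 3992 and 2382 CPM at 3 or more. In AOM PN they were 5115, 1826 and 2984 CPM with none and 5488, 1327 and 1079 CPM at 3 or more. Depth differed as well: median UMIs at 0 and at 3 or more were 6229 and 12527.5 in Apc ICI 1, 3958 and 10230 in Apc ICI 2, and 9723 and 9595 in Apc ICI 3. In the AOM PN tumours they were 6874.5 to 9186 and 8052 to 10134, lower at 0 in each. The part of depth or of either cell type in the split was not tested, and the Ly6c2-negative bins of the Apc ICI tumours held only 23, 23 and 10 members.

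**Figure D2:**
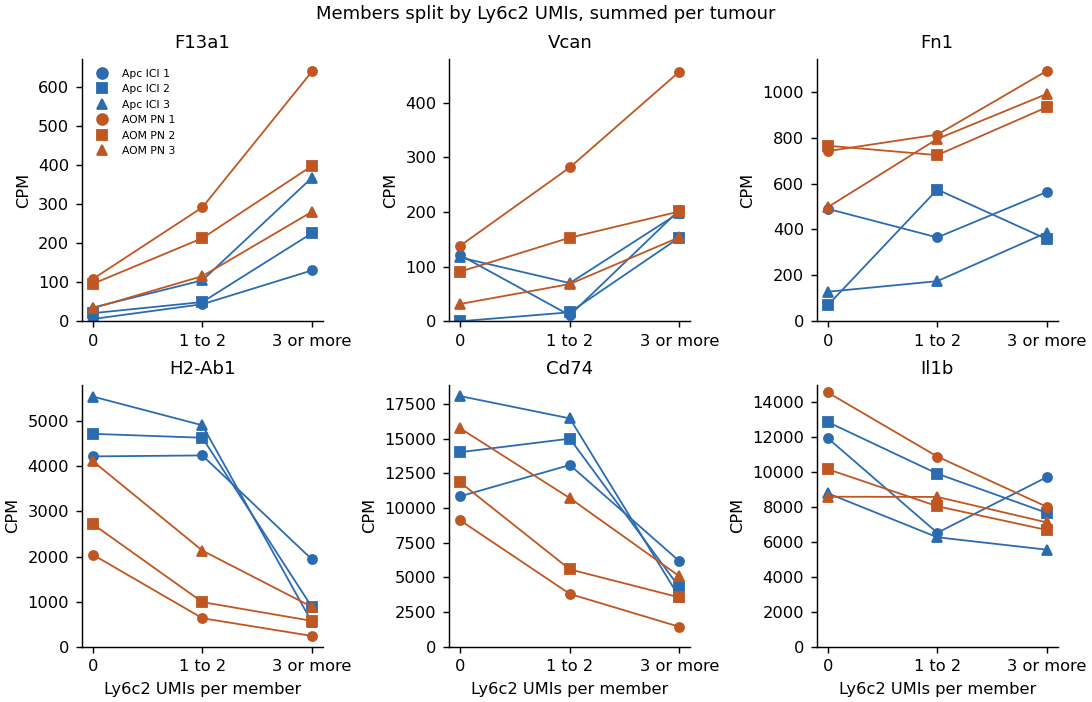
Levels of 6 genes (CPM, y axis) in members summed by their Ly6c2 UMIs (x axis), 1 line per tumour. F13a1, Vcan and Fn1 are higher and H2-Ab1, Cd74 and Il1b lower at 3 or more UMIs than at 0 in all 6 tumours.

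The monocyte class was next set against the C1q macrophages of the same tumours, with raw counts summed per class and tumour and the tumour as a block. The 15 genes of the rule were fitted and not tested. Of 7261 genes, 1498 were higher and 1440 lower in monocytes at an adjusted p under 0.05 (edgeR quasi-likelihood test, Benjamini-Hochberg), 40.5% of those tested (20.6% higher and 19.8% lower). The classes were cut on transcripts, so a difference in genes that accompany the gates was built into the comparison, and the values describe its size. The C1q class was also shallower than the monocytes in all 6 tumours, with medians of 2158.5 to 7689 UMIs, and with every cell thinned to 1000 UMIs 835 of 1944 genes passed.

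Monocytes held transcripts that C1q macrophages nearly lacked. Cd177, a surface glycoprotein best known from neutrophils, was at 19.7 to 80.0 CPM in monocytes of all 6 tumours and at 0 in C1q macrophages of 5 of them, with 0.79 CPM in AOM PN 2, all on the scale of the fit (CPM after TMM scaling). The log2 fold change was 8.12 ± 0.36 (SE), with an adjusted p of 1.9e-07 in edgeR. Cd177 in monocytes was 57.1% to 180% of its level in the neutrophil barcodes of the same tumour, whereas S100a8 was 0.950% to 15.3% of it.

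Ifitm6 (4.83 ± 0.36) and Hp, haptoglobin (4.35 ± 0.30), had log2 fold changes of similar size, and both were higher in 6 of 6 tumours. Ace, the angiotensin converting enzyme usually linked with non-classical monocytes, rose by 4.70 ± 0.43 and reached 22.5, 49.2 and 150 CPM in Apc ICI monocytes and 24.2, 23.6 and 27.0 CPM in AOM PN monocytes. Of 20 other classical monocyte genes, 19 were higher and 0 lower, with a median log2 fold change of 2.39 beside 0.0029 over all genes tested. Of 10 tested non-classical monocyte genes, 7 were higher and 2 lower, with a median of 0.98, so genes of both monocyte lists were higher. Slpi, a protease inhibitor, Plcb1 and Dmkn were also named by rule for size.

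Among the genes lower in monocytes, Pf4, a chemokine, was at 1.73 to 11.6 CPM in monocytes and 203 to 917 CPM in C1q macrophages, a log2 fold change of -6.50 ± 0.19 (adjusted p 8.53e-09, edgeR). H2-M2 (-9.35 ± 0.30), the chemokine Ccl8 (-8.83 ± 0.41), the growth factor Igf1 (-7.05 ± 0.36) and Fcrls (-6.82 ± 0.36) showed the largest differences, each lower in 6 of 6 tumours. The matrix genes Mmp2 and Col14a1 and the olfactomedin-like gene Olfml3 completed the 8 named by rule for size.

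Of 17 tested macrophage maturation genes 16 were lower and 0 higher, among them Ms4a7 (-4.86 ± 0.22), the apoptotic cell receptor Mertk (-4.06 ± 0.22) and Apoe (-3.94 ± 0.26). Of 11 antigen presentation genes 9 were lower and 1 higher, with H2-Eb1 at -2.34 ± 0.22 and H2-Ab1 at -2.03 ± 0.22. Slc40a1, the iron exporter ferroportin, was lower by -5.54 ± 0.28 and led the metal and lipid list, of which 8 of 13 were lower and 0 higher. Of 10 tested cell cycle genes 9 were lower, with Birc5 at -3.42 ± 0.29.

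Of 19 inflammatory genes 15 were higher and 1 lower in monocytes, with the cytokines Osm (2.00 ± 0.15) and Il6 (1.98 ± 0.45) among them. Of 12 neutrophil genes 10 were also higher and 0 lower, with a median of 2.31, and their part in the list counts was not tested. Of 17 interferon-response genes 15 were higher and 0 lower, with a median of 1.66, led by the transcription factor Irf7 (2.92 ± 0.25) and the antiviral GTPase Mx1 (2.68 ± 0.23). Of 10 CC chemokines 2 were higher and 3 lower, the latter including Ccl12 (-4.49 ± 0.32), shares near those of all genes. Of 19 myeloid transcription factors 11 were higher, with Klf2 at 1.59 ± 0.27, and 4 were lower, with Maf, a macrophage regulator, at -1.74 ± 0.17.

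Monocytes were then set against the Arg1 macrophages. Of 5922 genes 832 were higher and 837 lower, 28.2% of those tested (14% and 14.1%), by the same edgeR test. The Arg1 sums of the Apc ICI tumours rest on 14 to 19 cells, and with AOM PN tumours alone 2013 genes passed. Arg1 encodes arginase, which consumes arginine and marks a suppressive, hypoxia-exposed macrophage state in tumours.

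Spp1, osteopontin, was at 32.0, 239 and 92.5 CPM in Apc ICI monocytes and 178, 129 and 78.3 CPM in AOM PN monocytes, but at 4464 to 8187 CPM in Arg1 macrophages. Its log2 fold change was -5.79 ± 0.36 (adjusted p 2.25e-07, edgeR), lower in 6 of 6 tumours. Cxcl14 (-4.69 ± 0.31), the elastase Mmp12 (-4.08 ± 0.31), Rhoc (-4.07 ± 0.23), Ccl24 (-4.07 ± 0.31), podoplanin Pdpn (-4.02 ± 0.41), Dcstamp, a fusion protein of osteoclasts and giant cells (-4.02 ± 0.27), and Mertk (-3.89 ± 0.25) followed.

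Hypoxia and glycolysis genes moved one way: of 17 tested, 14 were lower in monocytes and 0 higher, with a median of -0.98 beside -0.0074 over all genes. Egln3, an oxygen sensor induced by hypoxia, was 19.2 to 33.0 CPM in monocytes and 84.6 to 180 CPM in Arg1 macrophages (-2.14 ± 0.15). Bnip3, a mitophagy gene induced by hypoxia (-1.59 ± 0.14), and the glycolytic enzyme Gapdh (-1.17 ± 0.13) had smaller differences in the same direction. Against C1q macrophages the same list ran the other way, with 9 of 17 higher and 0 lower.

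Inflammatory genes were also lower here, 12 of 19 against 1 higher. The neutrophil attractant Cxcl1 stood at -3.35 ± 0.23, Tnf at -2.11 ± 0.20 and Il1a at -1.66 ± 0.14. Metallothionein Mt2 (-3.51 ± 0.27) and lipoprotein lipase Lpl (-3.35 ± 0.40) led the metal and lipid list, of which 9 of 11 were lower and 0 higher. Of 20 classical monocyte genes 17 were higher and 1, Fn1, was lower, at -2.29 ± 0.18. Of 9 tested non-classical monocyte genes 5 were higher and 0 lower, with a median of 1.12.

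Cd177 (7.22 ± 0.43) and Ifitm6 (4.46 ± 0.29) were again among the genes higher in monocytes. Gm9733, the calcium homeostasis modulator family gene Fam26f, Ms4a4c, Ace and Wfdc17 were also named by rule for size. The adhesion integrin Itga4 was higher by 1.96 ± 0.23 and Irf7 by 3.30 ± 0.29, and of 13 tested interferon genes 10 were higher and 0 lower. Of 11 antigen presentation genes 3 were higher and 4 lower. Of 10 neutrophil genes 5 were higher and 2 lower, and their part was not tested.

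**Figure D3:**
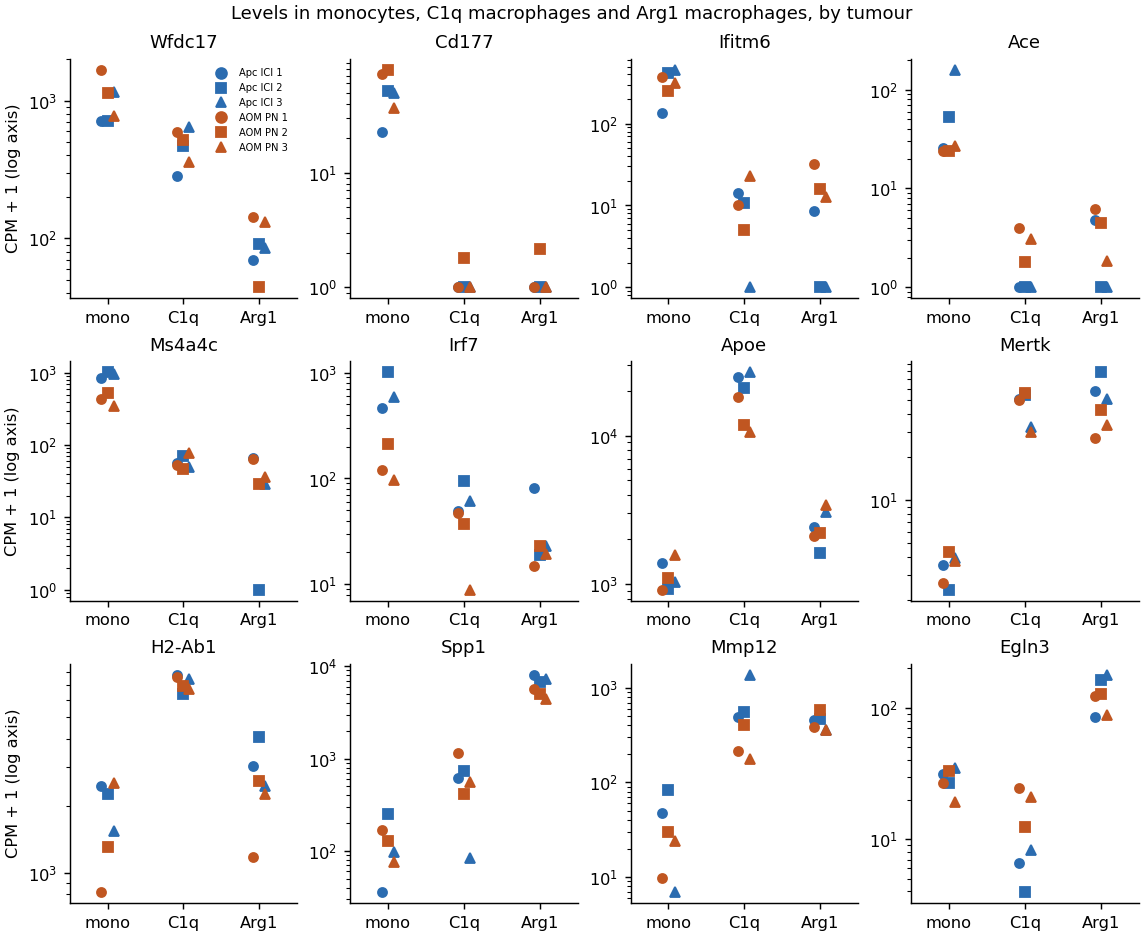
Levels of 12 genes (CPM + 1, log axis) in monocytes, C1q macrophages and Arg1 macrophages, 1 point per tumour. Wfdc17, Cd177, Ifitm6, Ace, Ms4a4c and Irf7 are highest in monocytes, Apoe in C1q macrophages, and Spp1 and Egln3 in Arg1 macrophages.

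Between the tumour groups, monocytes differed in few genes by the main test. Of 9046 genes 24 passed, 13 higher and 11 lower in AOM PN, 0.265% of those tested (0.144% and 0.122%), and 1238 had an unadjusted p under 0.05. DESeq2 called 220, with all 24 among them. The calls rested on the small Apc ICI group: without Apc ICI 1 or without Apc ICI 2 none passed (1163 and 1040 genes at an unadjusted p under 0.05), and without Apc ICI 3 there were 4. Without AOM PN 1, 2 or 3 there were 12, 67 and 16. Without members rich in neutrophil transcripts 23 genes passed, 21 of them among the 24.

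Ly6c2 and Chil3, both genes of the rule, are given as levels only. Ly6c2 was at 1440, 2791 and 2099 CPM in Apc ICI monocytes and 577, 502 and 362 CPM in AOM PN monocytes, without overlap. Chil3, a chitinase-like protein of monocytes and neutrophils, was at 227, 198 and 432 CPM in the Apc ICI tumours and 1122, 411 and 469 CPM in AOM PN, where the groups overlapped. Ccr2 ranged from 406 to 624 CPM and from 476 to 555 CPM, with full overlap.

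Genes of the interferon response lay on the lower side. Ifi44, an interferon-induced gene of antiviral responses, was at 21.01, 53.0 and 12.4 CPM in the Apc ICI tumours and 1.53, 1.18 and 0.52 CPM in AOM PN monocytes. All Apc ICI tumours were above all AOM PN tumours. The log2 fold change was -4.65 ± 0.57 (SE), with an adjusted p of 0.0244 in edgeR and of up to 0.0920 with a tumour left out.

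Ifit3b, an RNA-binding antiviral gene with a near-identical neighbour in Ifit3, was at 14.2, 80.7 and 24.8 CPM against 1.36, 2.23 and 1.73 CPM, a fall of -4.36 ± 0.63 (adjusted p 0.0349, edgeR), and reads may be split between the copies. Siglec1, a sialic acid receptor induced by interferon, was named after its values were seen. It passed too, at 6.81, 13.9 and 11.02 CPM against 1.02, 1.18 and 0.52 CPM (-3.38 ± 0.47, adjusted p 0.0315, edgeR).

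The promoters of Ifi44 and Ifit3b, which passed, and of Isg15, a ubiquitin-like interferon gene followed per cell below, are shown to set their sequences beside these levels. Isg15 was picked after its values were seen. Each run is 300 bases from RefSeq on GRCm38.p6, 250 before the start of the gene and 50 after, in the direction of transcription. Capitals mark matches to GAAANNGAAA or its reverse complement TTTCNNTTTC, the repeated core bound by interferon-activated factors, where overlapping matches join. Ifi44 lies on chr3:151749861-151750160 (minus strand), Ifit3b on chr19:34607707-34608006 (plus strand) and Isg15 on chr4:156200769-156201068 (minus strand).
Ifi44: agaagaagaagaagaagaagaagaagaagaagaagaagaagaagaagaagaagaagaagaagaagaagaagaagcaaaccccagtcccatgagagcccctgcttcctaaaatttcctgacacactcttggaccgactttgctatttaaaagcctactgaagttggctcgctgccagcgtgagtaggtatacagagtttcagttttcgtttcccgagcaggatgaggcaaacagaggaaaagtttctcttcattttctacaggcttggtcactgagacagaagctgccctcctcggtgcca
Ifit3b: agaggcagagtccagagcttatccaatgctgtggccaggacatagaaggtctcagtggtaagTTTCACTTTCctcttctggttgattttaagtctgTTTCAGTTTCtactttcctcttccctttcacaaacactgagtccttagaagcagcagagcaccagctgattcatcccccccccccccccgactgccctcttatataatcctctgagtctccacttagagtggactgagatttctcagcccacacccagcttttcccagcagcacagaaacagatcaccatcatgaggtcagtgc
Isg15: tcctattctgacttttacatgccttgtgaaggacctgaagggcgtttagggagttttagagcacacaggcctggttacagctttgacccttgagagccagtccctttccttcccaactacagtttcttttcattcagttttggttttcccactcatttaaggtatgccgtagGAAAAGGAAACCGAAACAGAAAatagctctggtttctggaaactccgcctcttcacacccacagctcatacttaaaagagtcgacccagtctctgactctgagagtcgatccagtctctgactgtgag
Ifit3b holds 2 matches and Isg15 holds 3, and these letters are not in the Ifi44 window. Of the 18 interferon-list genes 14 had a promoter in the table and 7 of those, 50%, held a match, against 3.99% of 27025 genes with a promoter of the same length. The list was made of known interferon-response genes, so this share describes the list and not these monocytes. Of the genes named by rule between the groups, 1 of 4 lower ones with a promoter, Ifit3b, held a match. Among the higher ones it was 0 of 5. A match is a description of the letters and not a site.

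Of the 18 interferon-list genes tested, Ifi44 was the 1 that passed, 17 of 18 estimates were below 0, and the median log2 fold change was -1.48 beside -0.015 over all genes. The groups did not overlap for 8 genes, all lower in AOM PN, where 9.99% of all genes were lower and 9.66% higher without overlap. Ifit3 stood at 48.3, 301 and 75.8 CPM in the Apc ICI tumours and 7.16, 26.3 and 7.78 CPM in AOM PN (-3.31 ± 0.73, adjusted p 0.0999, edgeR). Irf7, the interferon-induced master factor of the response and named after its values were seen, stood at 413, 932 and 550 CPM against 123, 213 and 97.4 CPM (-2.12 ± 0.36, adjusted p 0.0554, edgeR). Neither passed. Cxcl9, a chemokine induced by interferon gamma, had the one estimate above 0. DESeq2 called 6 of the 18 lower, and without Apc ICI 2, the tumour with the highest interferon level, none passed and the median was -0.88.

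Per cell, thinned to 1000 UMIs, members with 5 or more UMIs of the list made up 29.2%, 47.8% and 16.9% in Apc ICI and 3.45%, 15.3% and 2.95% in AOM PN. The lowest Apc ICI tumour stood just above the highest AOM PN tumour. Summed levels did overlap, at 3415, 5806 and 2524 CPM in the Apc ICI tumours and 960, 2618 and 1046 CPM in AOM PN. The same genes summed to 790, 1035 and 1108 CPM in Apc ICI C1q macrophages and 799, 907 and 394 CPM in AOM PN C1q macrophages. In Arg1 macrophages they summed to 2731, 411 and 294 CPM in Apc ICI, on 14 to 19 cells a tumour, and 305, 535 and 348 CPM in AOM PN. The test of whether the group difference itself differed between monocytes and C1q macrophages passed for 0 of 18 interferon genes (edgeR), 16 of them with a lower estimate in monocytes. Over all 8111 genes 784 had an unadjusted p under 0.05 in that test. Between monocytes and Arg1 macrophages 0 of 18 interferon genes passed the same kind of test (edgeR), with 12 estimates above 0.

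**Figure D4:**
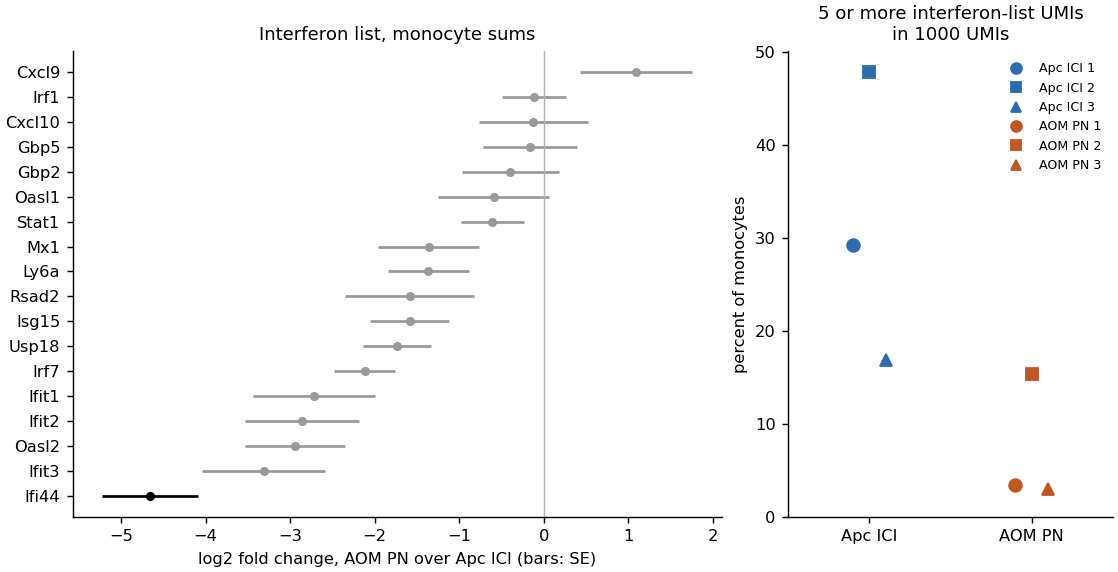
Left, log2 fold change (AOM PN over Apc ICI, bars SE) of 18 interferon-list genes in monocyte sums, with Ifi44 in black as the 1 past the test. Right, percent of monocytes with 5 or more list UMIs among 1000, 1 point per tumour; AOM PN tumours lie at 2.95% to 15.3% and Apc ICI tumours at 16.9% to 47.8%.

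Spon1, Gm19951 and Rsrp1 were the other genes named by rule among the 11 that were lower. Spon1, a secreted matrix protein, was at 41.5, 35.3 and 31.7 CPM in the Apc ICI tumours and 3.41, 6.96 and 4.50 CPM in AOM PN, with no overlap and a log2 fold change of -2.86 ± 0.29 (adjusted p 0.00811, edgeR). It was 9.04 times as high in Apc ICI monocytes as in the other kept barcodes. Rsrp1, an arginine and serine rich protein, fell by 1.57 on the log2 scale.

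Among the higher genes, Eps8, a regulator of actin bundling, was at 14.8, 17.7 and 15.2 CPM in the Apc ICI tumours and 98.7, 63.3 and 56.6 CPM in AOM PN. The groups were far apart, and the log2 fold change was 2.21 ± 0.27 (adjusted p 0.0244, edgeR). Notch2, a Notch receptor needed in mice for conversion to non-classical monocytes, was at 50.5, 68.1 and 51.0 CPM against 116, 161 and 123 CPM (1.25 ± 0.20, adjusted p 0.0455, edgeR). The Notch1 transgene named in the AOM PN genotype is a different gene. Ifrd1, an interferon-related developmental regulator, was at 569, 537 and 483 CPM against 1220, 1132 and 1346 CPM (1.22 ± 0.15, adjusted p 0.0244, edgeR).

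The antiviral membrane protein Ifitm1 was higher too, at 378, 281 and 274 CPM against 763, 880 and 1451 CPM (1.72 ± 0.26, adjusted p 0.0369, edgeR), and was 0.53 times as high in AOM PN monocytes as in the other kept barcodes. Bin1, a membrane-curving protein, rose by 1.24 ± 0.19, and Rpgrip1, Gm26669, Gm8797 and 1500011B03Rik also rose. Each of the 14 genes named here by rule lost its call without at least 1 Apc ICI tumour, with an adjusted p of up to 0.0920 for Ifi44 and Spon1. Of the 24 calls, Mcpt1, Mcpt2, Mt3, Mt4 and Ccl7 had less than 0.5 times the level of the other kept barcodes. The metallothionein genes Mt4 (-5.68) and Mt3 (-4.53) were lower in AOM PN, and Mcpt1, Mcpt2 and Ccl7 were higher. Mcpt1, a mast cell protease, went from 6.81, 7.57 and 9.64 CPM to 1664, 425 and 6861 CPM. Mast cell barcodes were also more numerous in AOM PN, and their part in it was not tested.

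**Figure D5:**
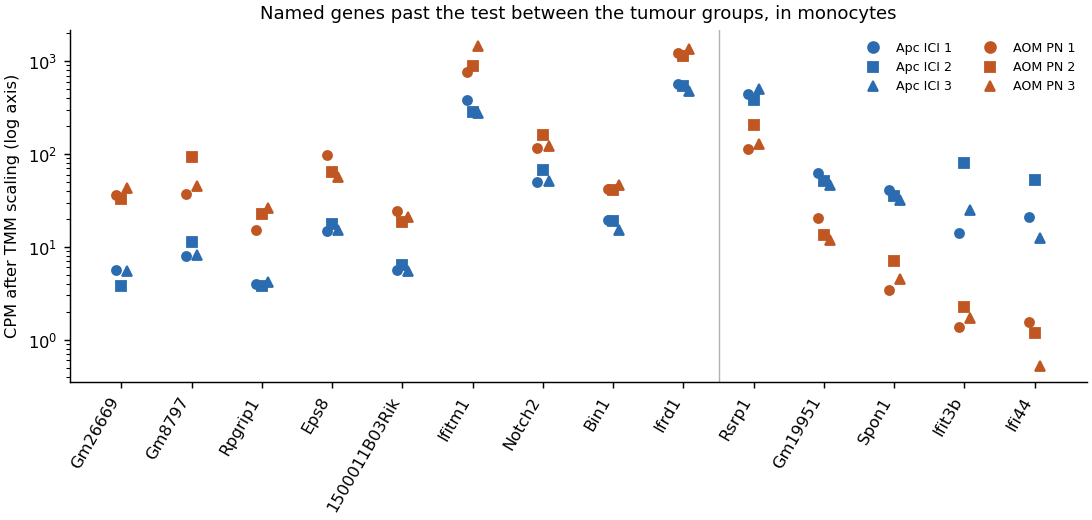
Levels (CPM after TMM scaling, log axis) of the 14 genes named by rule in monocytes, 1 point per tumour; genes left of the line are higher in AOM PN and genes right of it lower. The groups do not overlap for any of the 14, which the naming rule required.

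The remaining lists held few calls. Of 9 CC chemokines 1 passed, the monocyte attractant Ccl7, at 3.98, 10.1 and 4.13 CPM in the Apc ICI tumours and 33.8, 41.5 and 22.7 CPM in AOM PN (2.53 ± 0.40, adjusted p 0.0439, edgeR). Ccl2, the main ligand of Ccr2, was at 71.6, 211 and 194 CPM against 501, 462 and 326 CPM, without overlap and with an adjusted p of 0.129. Of 13 non-classical monocyte genes none passed, 12 estimates were below 0 and the median was -0.66. Cd300e, an activating receptor of that subset, was at 2.84, 11.4 and 13.8 CPM against 2.22, 0 and 0.17 CPM (-3.38 ± 1.04, adjusted p 0.208, edgeR).

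Fn1, fibronectin, was at 477, 313 and 313 CPM in the Apc ICI tumours and 981, 852 and 750 CPM in AOM PN, with no overlap. Its log2 fold change of 1.22 ± 0.21 had an adjusted p of 0.0554 in edgeR. None of the lists for classical monocyte genes, macrophage maturation, antigen presentation, inflammation, glycolysis, receptors, transcription factors, cell cycle, stress or lipid handling held a call by edgeR; DESeq2 and the other fits called 0 to 61 genes over all lists, against 4 here.

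Shares of members with at least 1 UMI, thinned to 1000 UMIs, were compared for 14 genes. Fn1 was detected in 27.8%, 21.7% and 20.8% of Apc ICI members and in 46.4%, 44.3% and 41.1% of AOM PN members, against 1.79% to 5.15% of T cells. Isg15 was detected in 31.3%, 51.1% and 39.0% against 14.7%, 29.2% and 11.8%, and in 9.31% to 21.4% of T cells of the 6 tumours. AOM PN 1 and 3 lay within that T cell range, but above the T cells of their own tumours, at 11.2% and 9.31%. Fn1 and Isg15 both had no overlap between groups and an exact permutation p of 0.1, or 0.56 after Benjamini-Hochberg adjustment over the 14 genes. Without thinning Fn1 was in 47.3% to 60.4% and 78.0% to 84.9%, and Isg15 in 66.7% to 86.0% and 45.0% to 69.7%, where the groups overlapped. Il1b, the interleukin-1 beta gene, was in 77.9% to 94.6% of members of all 6 tumours.

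The difference between tumour groups was last compared across classes. Between monocytes and C1q macrophages 30 of 8111 genes passed the interaction test (edgeR), 0.37%, 9 (0.111%) with a higher and 21 (0.259%) with a lower AOM PN over Apc ICI difference in monocytes. Ifi205, an interferon-inducible DNA sensor family gene, was at 273 ± 97 CPM in the Apc ICI tumours and 125 ± 62 CPM in AOM PN monocytes, and at 2.89 ± 2.505 and 28.0 ± 7.8 CPM in C1q macrophages (SD, n = 3 each). Its interaction was -4.28 ± 0.37 (adjusted p 0.000945, edgeR). Selenop, a selenium carrier, was 104 ± 24 and 112 ± 15 CPM in monocytes but 916 ± 103 and 440 ± 60 CPM in C1q macrophages (SD, n = 3 each), an interaction of 1.19 ± 0.19. Without Apc ICI 1 there were 10 calls, without Apc ICI 2 there was 1, without AOM PN 2 there were 11 and without AOM PN 3 there were 4. The neutrophil genes had 3 of 12 calls lower and all 12 estimates below 0 in this test, and their part in it was not tested.

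Between monocytes and Arg1 macrophages 0 of 6762 genes passed the interaction test in edgeR, while 609 had an unadjusted p under 0.05, DESeq2 called 21 and leaving out single tumours gave 0 to 5.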

How the data were processed

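Single-cell RNA libraries of 6 colon tumours were analysed, 3 per group, as labelled. The authors deposited raw UMI count matrices made with Cell Ranger 6.1.2 on mm10, per the submitters' processing notes; the lowest barcode total was 500 UMIs and library totals ran from 59309093 to 98583066. The monocyte rule, the gene lists and the tests were chosen with earlier results of these data known. Barcodes were kept at 200 genes and 20% mitochondrial UMIs. Raw counts of members, C1q macrophages and Arg1 macrophages were summed per tumour and tested with edgeR 4.0.16 (TMM, filterByExpr, quasi-likelihood; limma 3.58.1, R 4.3.3) with Benjamini-Hochberg adjustment over all genes tested; class tests and interactions had the tumour as a block. Rule genes were fitted and not tested; haemoglobin genes stayed in the fits, with an alternative without them, and out of the total of CPM values that do not come from a fit. The design asked for sums of at least 20 cells, which the Arg1 sums of the Apc ICI tumours, at 14 to 19 cells, did not reach; they were used all the same. Shares were compared by two-sided exact permutation tests over tumours (Python 3.11.15, scipy 1.17.1). Doublets were scored against simulated ones (scikit-learn 1.9.0) and kept, with an alternative without them.

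Genes were named by rule: called, all tumours separated or of 1 sign, at least 20 CPM in the higher group, and there at least 0.5 times the level of the other kept barcodes, ranked by fold; up to 4 members of each list were also named. The group test was tested on simulated data of 9057 genes. In it 100 changes of 2-fold and 100 of 4-fold were planted, only in genes at or above the median level. Counts were drawn at the trended dispersion, without spread particular to a gene. Of the planted changes 63% of 2-fold and 100% of 4-fold were recovered, and 5.23% of calls were false. The interaction test with C1q macrophages, simulated in the same way on 8122 genes, recovered 39% of 2-fold and 99% of 4-fold changes. Of its calls 4.17% were false. These values do not cover genes below the median level or with a wider spread. Alternatives were DESeq2 1.42.0, other size factors, no filter on low counts, thinning, doublet removal, a stricter rule, a replicate block and leaving out each tumour. Same-numbered tumours of the groups correlated at r = -0.15, 0.059 and 0.0060 in their deviations. With so few tumours per group these values cannot decide whether the numbers pair the tumours, so the replicate block was kept as an alternative only. Some genes that met the naming rule are not reported here.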

Additional observations from a re-analysis of the deposited data

Results flagged for a closer look

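The difference between tumour groups itself differed between monocytes and C1q macrophages for 30 of 8111 genes, tested by an interaction term in edgeR with adjusted p under 0.05, and the 9 named by rule are given here. On the log2 scale, positive values mean a larger AOM PN over Apc ICI difference in monocytes. The neutrophil chemokine Cxcl1 stood at 1.94 ± 0.25 (SE), with mean levels of 26.4 and 140 CPM in Apc ICI and AOM PN monocytes and 123 and 161 CPM in C1q macrophages. Bin1 stood at 1.48 and Selenop at 1.19.

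The DNA sensor family gene Ifi205 stood at -4.28 and the Ly6 family gene Ly6i at -3.94, with Ly6i means of 131 and 42.0 CPM in monocytes and 1.42 and 8.48 CPM in C1q macrophages. Spon1 stood at -3.55, with 37.01 and 5.04 CPM in monocytes and 8.66 and 14.5 CPM in C1q macrophages. The formyl peptide receptor gene Fpr2 stood at -2.62, the heparan sulfate enzyme gene Hs3st3b1 at -2.44 and the stress gene Ddit4 at -2.39. For Fpr2 and Ddit4 the monocyte means were close, at 39.6 and 45.0 CPM and at 71.2 and 101 CPM, while the C1q means went from 3.50 to 26.0 CPM and from 8.12 to 63.9 CPM. Levels in Apc ICI C1q macrophages were near the floor for Ly6i, at 1.42 ± 2.47 CPM (SD), and Fpr2, at 3.50 ± 4.05 CPM (SD). The size of those interactions rests on few UMIs.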

How the results depend on the processing

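The difference in the monocyte share of kept barcodes was 5.18 points and kept its direction in every alternative run, at 4.15 to 6.18 with a tumour left out and 2.76 under a stricter rule; that of phagocytes was 13.2 points, 9.97 to 19.1 and 4.62. The 24 group calls became 220 with DESeq2, 384 without a filter on low counts, 12 thinned to 1000 UMIs, 73 with a replicate block and 0 to 67 with a tumour left out. The 4 calls among listed genes became 34, 61, 23 with the replicate block, 8 under the stricter rule and 0 to 15. Thinning left 835 calls against C1q and 282 against Arg1 macrophages, with fewer genes tested. The C1q interaction calls, 30, became 59 with DESeq2, 226 without the filter, 18 thinned and 1 to 24 with a tumour left out; the Arg1 ones, 0, became 21, 92, 6 and 0 to 5. The fits on AOM PN tumours alone were chosen after seeing the data. Of 2010 alternative values of named genes, 1815 kept direction and call, 141 lost and 52 gained the call, and 2 reversed: S100a8 between groups, -1.53, became 0.041 under the stricter rule and 0.89 without members rich in neutrophil transcripts. The cause of these changes was not tested. The Apc ICI sums rest on 77 to 144 members a tumour, against 644 to 819 in AOM PN.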
